A study of Homo sapiens with 15 samples.

Results

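The RNA of 10 proteases that can cut proteins off the cell surface or out of the surrounding matrix was examined: 7 matrix metalloproteinases (MMP1, MMP3, MMP7, MMP9, MMP10, MMP13 and MMP14) and 3 ADAM sheddases (ADAM8, ADAM10 and ADAM17). They were selected by gene symbol, and each matched a single entry among the 61552 Ensembl genes counted. The cells were MDA-MB-468, an established human breast cancer cell line with high EGFR, sequenced as polyA RNA in 15 libraries, 3 for each of 5 groups. In the drug experiment, cells were serum starved for 12 h and given 10 ng/mL EGF alone (EGF), EGF with 10 µM cSNX1.3 (labelled cSNX), or EGF with 15 µM erlotinib (labelled ERL), for 12 h. The peptide cSNX1.3 hinders the binding of EGFR to Sorting Nexin 1 and so reduces the EGFR that reaches the nucleus, and erlotinib inhibits the EGFR tyrosine kinase. In the line experiment, endogenous EGFR was knocked down with an IPTG-inducible lentiviral shRNA against the 3′ end of its transcript, with puromycin resistance, and EGFR-GFP was then transfected, either wildtype (shEGFR-WT, here WT) or with 2 arginines and 1 lysine of the nuclear localization sequence changed to aspartic acid (shEGFR-NLS, here ΔNLS). According to the paper, transduced cells were put in IPTG to start the knockdown and were kept in it from then on. Both lines carry the knockdown and were treated with EGF, whose dose and time for the lines are not given in the sources used here. The question behind the groups is which genes depend on nuclear EGFR and which on the EGFR kinase.

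Matrix metalloproteinases are zinc enzymes made as inactive precursors. Most are secreted, and a few, such as MMP14, are held in the plasma membrane. Together they cut collagens, other matrix proteins and several surface proteins, and tissue inhibitors of metalloproteinases (TIMPs) block them. ADAM10 and ADAM17 are membrane proteases that release the outer part of other membrane proteins, a step called shedding. Their substrates include the precursors of the EGF-family ligands, and shedding of ligands such as MICA and the ULBP proteins from tumour cells removes targets of the NKG2D receptor of natural killer (NK) cells. ADAM protease activity is controlled largely after transcription, by trafficking and by partner proteins, so the RNA levels given here are not activities.

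Library totals ranged from 22915676 to 35900649 read pairs, with group medians from 25327489 to 32850320. EGFR itself, the targeted gene, stood at 4750 ± 334 CPM (counts scaled to library size; SD, n = 3) with EGF, 6130 ± 447 with cSNX1.3, 4680 ± 255 with erlotinib, 1346 ± 171 in WT and 1722 ± 34.9 in ΔNLS. Introduced and endogenous EGFR transcripts are counted together, so these values do not check the knockdown of each line. EGFR was higher in ΔNLS than in WT (log2 fold change 0.37, adjusted p = 0.00367) and missed the threshold of edgeR with cSNX1.3 (0.38, adjusted p = 0.0622), where DESeq2 called it. Of 3 hormone and ERBB2 receptors, PGR was at 0 counts in all 15 libraries, ESR1 at 61 to 292 and ERBB2 at 765 to 3546. ERBB2 had 55.5, 48.4 and 56.8 CPM with EGF and 104, 92.0 and 109 CPM with erlotinib. ESR1 had 4.08, 4.28 and 4.54 CPM in WT and 8.39, 6.72 and 6.37 CPM in ΔNLS. Of the 2 tested, 1 was called higher with erlotinib and 1 in ΔNLS, beside 22.8% and 20.4% of all genes. With cSNX1.3 none was called by edgeR (1 at an unadjusted p under 0.05). The epithelial markers EPCAM, CDH1, KRT5, KRT8, KRT18 and KRT19 were expressed in every library. Their summed level was 15738 to 20989 CPM with EGF, 18441 to 23535 with cSNX1.3, 8787 to 10548 with erlotinib, 18137 to 20766 in WT and 11132 to 13742 in ΔNLS. With erlotinib 3 of the 6 fell (KRT8 by a log2 fold change of -1.20) and CDH1 rose (0.47), and in ΔNLS 5 fell (KRT8 by -0.73). None of the 5 leukocyte markers exceeded 7 counts. The 5 fibroblast markers, with DCN at 0, summed to 8.38 to 21.4 CPM per library, nearly all COL1A1, which fell with erlotinib (-0.39) and in ΔNLS (-0.31). The 3 endothelial markers summed to 1.11 to 6.88 CPM, and CDH5, at most 33 counts, rose in ΔNLS (1.28). The part of these shifts in the protease results was not tested.

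Among the 10 proteases, MMP7, MMP14, ADAM10 and ADAM17 were expressed in all 15 libraries, ADAM8 had group means of 0.240 to 1.08 CPM with 1 read pair in its lowest library, and MMP1, MMP3, MMP9, MMP10 and MMP13 were at or near the detection limit. Set against transcript length in the EGF group, MMP7 had the highest level at 33.6 CPM per kb of annotated exon, followed by ADAM10 at 11.1, ADAM17 at 5.39 and MMP14 at 3.80. With the length of the canonical transcript in place of all annotated exons, MMP7 stood at 69.7 CPM per kb, ADAM17 at 19.6, ADAM10 at 15.9 and MMP14 at 4.75, so the order of the 2 ADAMs depends on the length used. Expressed genes passed a filter on low counts before testing (filterByExpr), which kept 5 of the 10 proteases in the drug experiment and 6 in the line experiment.

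**Figure D1:**
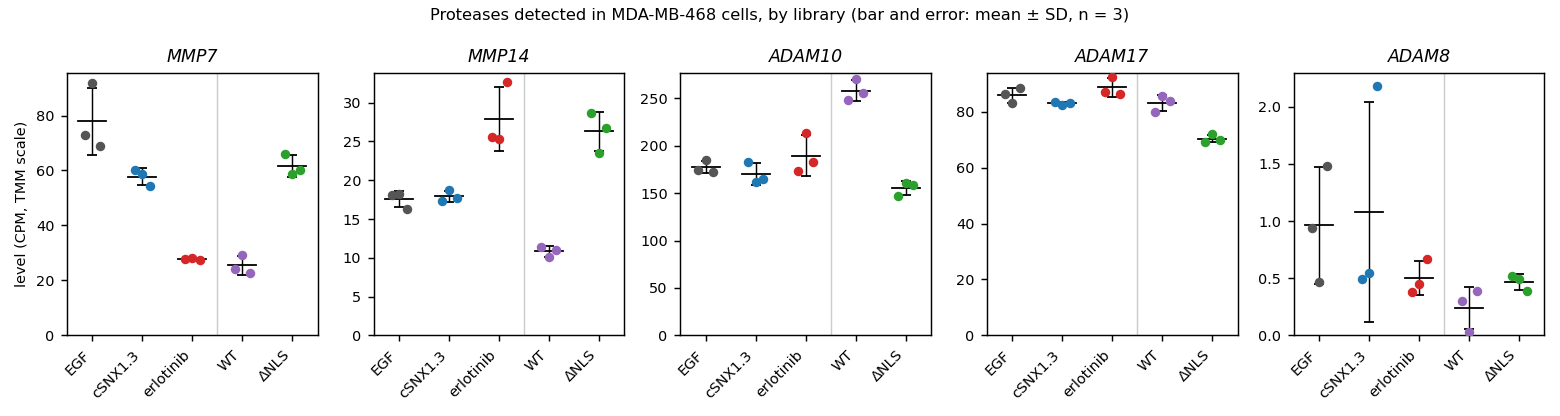
Level of the 5 proteases with most counts in each library, in CPM on the TMM scale (y axes start at 0), by group; points are libraries, bars and error bars the mean ± SD of 3. MMP7 was lowest with erlotinib and in WT, MMP14 was highest with erlotinib and in ΔNLS, and ADAM10 was highest in WT.

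MMP7 (matrilysin, ENSG00000137673) is among the smallest of the family, lacks the hemopexin domain that most MMPs have, and is known as a metalloproteinase that epithelial cells themselves make. The gene lies at chr11:102520508-102530750 on the minus strand of GRCh38, with 6 exons in its canonical transcript. With EGF alone its level was 72.9, 91.9 and 69.0 CPM in the 3 libraries. With cSNX1.3 it was 60.1, 58.8 and 54.4 CPM, and with erlotinib 27.7, 28.3 and 27.6 CPM. The 3 groups did not overlap, and the erlotinib libraries lay closest together. In the line experiment MMP7 was at 24.3, 29.4 and 22.8 CPM in WT and at 66.0, 58.6 and 60.3 CPM in ΔNLS, again without overlap.

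The promoter of MMP7 is shown because this gene changed in all 3 comparisons, and that of MMP14 because it rose beside MMP7 in ΔNLS. Both are RefSeq sequence of build GRCh38.p14, written 5′ to 3′ on the strand of the gene and ending at the last base before the annotated 5′ end: chr11:102530751-102530997 (minus strand) and chr14:22836335-22836559 (plus strand). Capitals mark matches to 2 motifs, searched on both strands: TGANTCA, which AP-1 factors such as FOS and JUN dimers bind, and AGGAAG, read as CTTCCT on the other strand, which ETS factors of the PEA3 group bind.
MMP7: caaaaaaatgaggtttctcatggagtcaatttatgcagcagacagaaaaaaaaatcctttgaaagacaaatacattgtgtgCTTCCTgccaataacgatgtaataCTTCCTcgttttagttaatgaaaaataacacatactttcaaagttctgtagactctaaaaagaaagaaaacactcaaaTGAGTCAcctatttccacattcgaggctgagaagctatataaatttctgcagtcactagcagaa
MMP14: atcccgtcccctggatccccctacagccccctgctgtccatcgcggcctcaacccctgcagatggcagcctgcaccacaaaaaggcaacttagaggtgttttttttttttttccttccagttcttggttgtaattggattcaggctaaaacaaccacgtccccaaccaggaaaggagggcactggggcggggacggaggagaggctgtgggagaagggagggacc
MMP7 held the AP-1 motif once, 67 bases before the RefSeq start, and the PEA3 motif at 169 and 145 bases before it. It also held CTTTGA, the core recognised by TCF factors of the Wnt pathway, at 194 and 108 bases before the start. MMP14 held none of the 3 motifs in this window. Of 35116 RefSeq promoter windows of 250 bases, 6.57% held TGANTCA, 28.7% AGGAAG and 11.2% CTTTGA, and a match is a description of the letters, not a sign of binding.

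The 250-base windows of 6 of the 10 proteases were in the RefSeq table. Besides MMP7, the AP-1 motif was present in MMP10 (stromelysin 2), whose match also lay 67 bases before the start. The 30 bases around both matches are set side by side, from chr11:102530796-102530825 and chr11:102780677-102780706, both on the minus strand, with the motif in capitals.
MMP7 around AP-1: aaacactcaaaTGAGTCAcctatttccaca
MMP10 around AP-1: aaacacatgcaTGAATCAtactgttggtga
These genes of the same chromosome 11 cluster share the place of the match but not the level, since MMP10 was almost undetected in these cells. ADAM10 held AGGAAG at 134 and 54 bases before its RefSeq start and ADAM17 at 157 bases before, while ADAM8 held none of the 3 motifs.

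cSNX1.3 vs. EGF asks what the peptide that reduces nuclear EGFR does while EGF is present. No group of the drug experiment received a control peptide, so effects of a peptide as such are included. The paper also calls it probable that cSNX1.3 affects other interactions between proteins. MMP7 was the single protease that passed the test, and it fell. Its log2 fold change was -0.42 (SE 0.098, 95% interval -0.63 to -0.21, adjusted p = 0.0167), or 0.749 of the level with EGF alone. The call rests on single libraries: without EGF replicate 2, the highest library, the log2 fold change was -0.30 with adjusted p = 0.0780, and without cSNX replicate 2 or 3 the adjusted p was 0.0582 and 0.0771. Across all 15 alternatives the log2 fold change stayed between -0.49 and -0.30. Of 15738 genes tested, 6.07% were called, 3.38% higher and 2.69% lower, beside 1 of 5 tested proteases.

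The other 4 tested proteases did not pass in this comparison. MMP14 was at 18.1, 18.2 and 16.3 CPM with EGF and at 17.3, 18.8 and 17.7 CPM with cSNX1.3, overlapping ranges with a log2 fold change of 0.04 (95% interval -0.20 to 0.29, adjusted p = 0.896). ADAM10 differed by -0.05 (-0.25 to 0.15, adjusted p = 0.842) and ADAM17 by -0.04 (-0.21 to 0.13, adjusted p = 0.850) on the log2 scale. None of these 3 intervals reached the -0.42 seen for MMP7, but that of ADAM10 overlapped the MMP7 interval of -0.63 to -0.21. Differences between genes were not tested. ADAM8 had a far wider interval, -0.93 to 1.33 around 0.20 (adjusted p = 0.886), because its libraries scattered: 0.942, 0.464 and 1.49 CPM with EGF against 0.496, 0.548 and 2.18 CPM with cSNX1.3. Without cSNX replicate 3 its log2 fold change turned to -0.88.

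Erlotinib vs. EGF asks what blocking the kinase does. MMP7 fell and MMP14 rose. For MMP7 the log2 fold change was -1.46 (SE 0.10, 95% interval -1.67 to -1.25, adjusted p = 1.79e-08), which left 0.364 of the level with EGF alone. MMP14, a collagenase anchored in the membrane that also activates the precursor of MMP2, had 25.6, 25.4 and 32.7 CPM with erlotinib, all above the 16.3 to 18.2 CPM with EGF. Its log2 fold change was 0.69 (SE 0.11, 95% interval 0.45 to 0.93, adjusted p = 0.000154), or 1.61-fold. Erlotinib replicate 3 was the highest MMP14 library, and over all alternatives, this library left out included, the log2 fold change ran from 0.56 to 0.80 and stayed called.

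ADAM10 and ADAM17 did not pass the test with erlotinib, at log2 fold changes of 0.12 (-0.08 to 0.32, adjusted p = 0.316) and 0.07 (-0.10 to 0.24, adjusted p = 0.514). ADAM10 had 174, 185 and 173 CPM with EGF and 173, 213 and 183 CPM with erlotinib, and the groups overlapped. Scaled by library total alone, ADAM10 was called with 0.23 (adjusted p = 0.0435), a setting in which the median of all genes rose by 0.11. ADAM8, at 0.382, 0.449 and 0.667 CPM with erlotinib, overlapped with EGF and did not pass (log2 fold change -0.94, adjusted p = 0.204). The share of all genes called was 44%, 22.8% higher and 21.2% lower, beside 2 of 5 proteases.

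The 2 drugs share the EGF libraries, so their difference was tested directly, at their different doses. MMP7 was 2.06-fold higher with cSNX1.3 than with erlotinib (log2 fold change 1.04, 95% interval 0.83 to 1.26, adjusted p = 3.43e-07). MMP14 was lower with cSNX1.3, by a log2 fold change of -0.65 (-0.89 to -0.41, adjusted p = 0.000154). ADAM8, ADAM10 and ADAM17 did not pass, with log2 fold changes of 1.14 (-0.08 to 2.35), -0.17 (-0.37 to 0.03) and -0.11 (-0.28 to 0.06). Here 56.1% of all genes were called. Scaled by library total alone, ADAM10 and ADAM17 were called lower with cSNX1.3, at -0.34 and -0.27, while the median of all genes moved by -0.18.

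ΔNLS vs. WT asks how the line with the mutated nuclear localization sequence differs from the wildtype line when the knockdown is shared. The mutation cannot be told apart here from other differences between the lines. The p-values do not cover variation between lines made with the same construct. MMP7 and MMP14 rose, and ADAM10 and ADAM17 fell. MMP13 was also called lower, but it passed the filter only through the WT group, where it is high. MMP7 was 2.44-fold higher (log2 fold change 1.28, SE 0.094, 95% interval 1.08 to 1.48, adjusted p = 2.11e-08). MMP14 had 11.4, 10.1 and 11.1 CPM in WT and 28.6, 23.6 and 26.7 CPM in ΔNLS, a 2.45-fold difference (log2 fold change 1.29, SE 0.097, 1.09 to 1.496, adjusted p = 2.78e-08). All 3 ΔNLS libraries lay above all 3 WT libraries for both genes. Neither call was lost under any of the 14 alternatives, in which MMP7 ran from 1.201 to 1.404 and MMP14 from 1.23 to 1.36.

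ADAM10 (ENSG00000137845, chr15:58588809-58749791, minus strand) cuts Notch receptors and cadherins as well as NK ligands. It had 248, 270 and 256 CPM in WT and 147, 160 and 159 CPM in ΔNLS. The groups were far apart, with a log2 fold change of -0.72 (SE 0.069, 95% interval -0.87 to -0.58, adjusted p = 4.53e-07), or 0.606 of the WT level. ADAM17 (TACE, ENSG00000151694, chr2:9488486-9556732, minus strand) releases TNF and several EGF-family ligands. Its levels were 80.0, 85.7 and 83.9 CPM in WT and 69.3, 71.9 and 70.1 CPM in ΔNLS, a difference of -0.23 on the log2 scale (SE 0.067, -0.37 to -0.09, adjusted p = 0.0115). This smaller change was not called when libraries were scaled by their totals alone (-0.16, adjusted p = 0.0685) or without ΔNLS replicate 3 (adjusted p = 0.0582). Exons of ADAM17 share 1645 bases with IAH1 on the opposite strand, a gene with 1148 to 2051 counts per library. The authors' counting did not use strand, and whether reads in the shared bases were counted or left out is not given in the sources used here.

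Between the lines 41.4% of all 15805 genes tested were called, 20.4% higher and 21% lower, beside 5 of 6 proteases with MMP13 counted. ADAM8 did not pass: it had 0.299, 0.0317 and 0.390 CPM in WT and 0.517, 0.491 and 0.391 CPM in ΔNLS (log2 fold change 0.94, -0.13 to 2.02, adjusted p = 0.151). These are 1 to 18 read pairs per library, whose ranges overlapped before scaling. The labels do not say whether the replicates of a group are separate cultures, so all p-values measure the spread between these libraries, which may be technical.

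**Figure D2:**
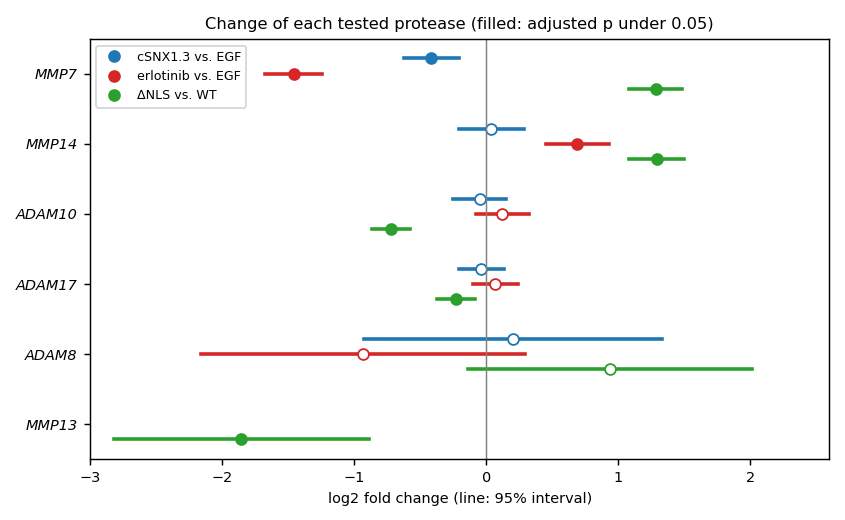
Log2 fold change (x axis) of each protease that was tested, by comparison; points are the fitted values, lines their 95% intervals, and filled points have an adjusted p under 0.05. MMP7 lay at -0.42, -1.46 and 1.28 in the 3 comparisons, MMP14 at 0.04, 0.69 and 1.29, and ADAM10 moved clearly from 0 in ΔNLS vs. WT, at -0.72.

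The effects of ΔNLS and of cSNX1.3, which both aim at nuclear EGFR, have no library in common, and their difference was tested in a fit of all 15 libraries. MMP7 fell with cSNX1.3 and rose in ΔNLS, and the ΔNLS effect was higher by 1.71 on the log2 scale (95% interval 1.402 to 2.01, adjusted p = 1.75e-08). For MMP14 the difference was 1.25 (0.94 to 1.57, adjusted p = 2.39e-06), and for ADAM10 it was -0.67 (-0.92 to -0.42, adjusted p = 0.000261). ADAM17 and ADAM8 did not pass, at -0.19 (adjusted p = 0.174) and 0.74 (adjusted p = 0.587). Of 16524 genes, 23.1% were called in this test, beside 4 of 7 proteases. These include MMP9, which was kept only through the groups where it is high and whose call rests on single libraries. The manipulation and the experiment it was made in cannot be told apart in this difference.

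Placed in order over the 5 groups, MMP7 ran from EGF (77.9 ± 12.3 CPM; SD, n = 3) through ΔNLS (61.6 ± 3.84) and cSNX1.3 (57.8 ± 3.03) to erlotinib (27.8 ± 0.374) and WT (25.5 ± 3.44). The ranges of ΔNLS and cSNX1.3 overlapped, as did those of erlotinib and WT. MMP14 ran from erlotinib (27.9 ± 4.15 CPM) and ΔNLS (26.3 ± 2.55), which overlapped, through cSNX1.3 (17.9 ± 0.746) and EGF (17.6 ± 1.07), which also overlapped, to WT (10.8 ± 0.682). The wildtype line had the lowest mean of both genes, though for MMP7 it was not set apart from erlotinib. It was also the group with the highest ADAM10, at 258 ± 11.3 CPM against 190 ± 21.2 with erlotinib, 177 ± 6.47 with EGF, 170 ± 11.4 with cSNX1.3 and 155 ± 7.33 in ΔNLS. ADAM17 was the steadiest of the 4, with overlapping neighbours from 88.7 ± 3.40 CPM with erlotinib through EGF (86.0 ± 2.68), WT (83.2 ± 2.96) and cSNX1.3 (83.0 ± 0.460), and only ΔNLS apart at 70.4 ± 1.33. Differences between groups of different experiments include the knockdown with its IPTG, the transfection and the experiment itself. Fewer cells of a kind cannot be told apart from less RNA per cell in bulk samples.

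The remaining proteases were seen in few reads. MMP3 (stromelysin 1, ENSG00000149968, chr11:102835801-102843609) had 0 counts in all 15 libraries, which allows a level of up to 0.0836 to 0.131 CPM per library (3 counts of the total; counting error only). MMP10 (ENSG00000166670, chr11:102770502-102780628) had 0, 1 and 2 counts in WT and 0 in the other 12 libraries. MMP1 (interstitial collagenase, ENSG00000196611, chr11:102789401-102798160) had 2, 0 and 0 counts with EGF, 5, 1 and 2 with cSNX1.3, 1, 0 and 0 in WT, and none with erlotinib or in ΔNLS. No difference in these 3 genes was detectable at this depth. They share a cluster of MMP genes on chromosome 11 with MMP7 and MMP13, so levels in the cluster ranged from undetected to among the most abundant of the 10 proteases per kb.

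MMP13 (collagenase 3, ENSG00000137745, chr11:102942995-102955732) was low but not equally so. WT had 17, 19 and 13 counts and ΔNLS 5, 5 and 3. The ranges did not overlap, and the log2 fold change was -1.85 (SE 0.46, 95% interval -2.82 to -0.89, adjusted p = 0.00391). MMP13 passed the filter in the line experiment through the WT group, where it is high, so its being called is no independent support. In the drug experiment it had 0, 0 and 1 counts with EGF, 4, 0 and 1 with cSNX1.3 and 2, 4 and 3 with erlotinib and was not tested. Its ΔNLS effect minus the cSNX1.3 effect missed the threshold (adjusted p = 0.0522), and the size of that difference rests on an EGF group at the floor.

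MMP9 (gelatinase B, ENSG00000100985, chr20:46008908-46016561) had 5, 3 and 3 counts with EGF, 18, 11 and 4 with cSNX1.3 and 2, 0 and 1 with erlotinib. WT had 12, 12 and 7 and ΔNLS 7, 3 and 3. Ranges of cSNX1.3 and EGF overlapped, as did those of WT and ΔNLS at 7 counts. MMP9 failed the filter in both experiments, and without a filter it did not pass in any of the 3 comparisons, with log2 fold changes of 1.66 for cSNX1.3 vs. EGF (adjusted p = 0.243), -1.92 for erlotinib vs. EGF (adjusted p = 0.171) and -1.23 for ΔNLS vs. WT (adjusted p = 0.173). In the fit of all 15 libraries it was kept, through the groups where it is high, and the ΔNLS effect was lower than the cSNX1.3 effect by a log2 difference of -2.87 (95% interval -4.69 to -1.05, adjusted p = 0.0205). Leaving out 1 library, EGF replicate 3, cSNX replicate 1, WT replicate 1 or ΔNLS replicate 2, took the call away, with an adjusted p of up to 0.0892.

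**Figure D3:**
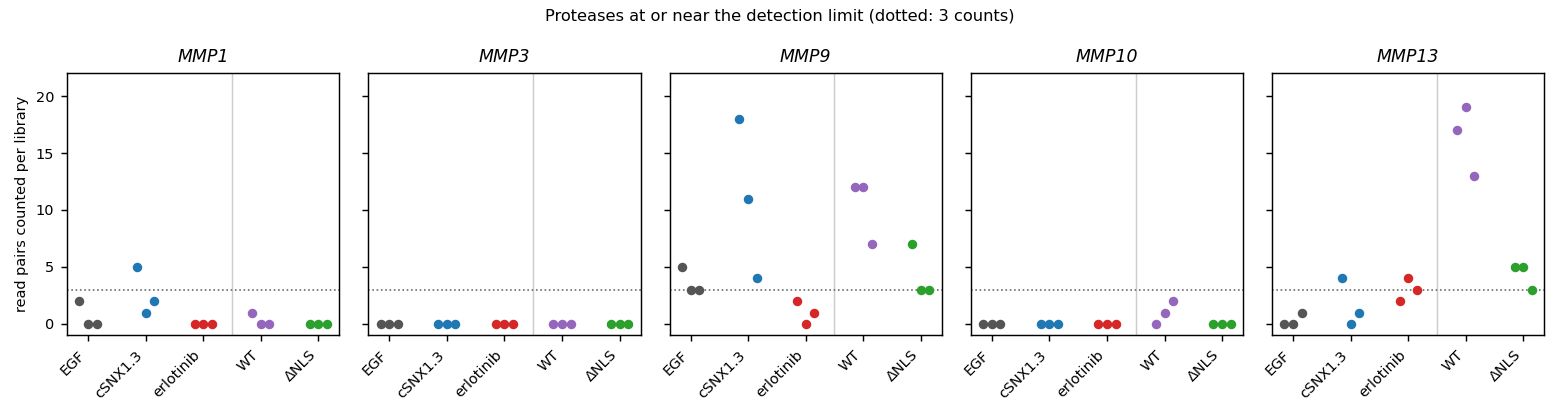
Read pairs counted per library (y axis, not scaled for depth) for the 5 proteases at or near the detection limit, by group; each point is a library and the dotted line marks 3 counts. MMP3 was at 0 throughout, and MMP13 was highest in the 3 WT libraries, at 13 to 19 counts.

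The proteases were then set beside the genes that activate, block, escort or feed them. These lists were chosen with earlier results of these data known. The counts called in them, here and in the following paragraphs, are a description and no independent support. Of 16 other MMPs, 7 were tested in the drug experiment: with cSNX1.3 none was called by edgeR (0 at an unadjusted p under 0.05, 0 by DESeq2), and with erlotinib MMP25 and MMP28 rose (log2 fold changes 1.59 and 1.42) and MMP20, the enamel protease, fell (-1.49). Of the 6 tested between the lines, MMP24 and MMP15 rose (0.50 and 0.22) and MMP28 fell (-1.46). With all 15 libraries in a single fit MMP24 and MMP15 were not called (adjusted p = 0.0878 and 0.0529), nor was MMP24 by DESeq2 (0.0586). Calls were also lost without single libraries: MMP25 with erlotinib without EGF replicate 2 or 3 or ERL replicate 1 or 2 (adjusted p up to 0.135), MMP28 with erlotinib without EGF replicate 1 or ERL replicate 3 (up to 0.0808), MMP24 without ΔNLS replicate 1 or 2 or WT replicate 1 or 3 (up to 0.115), and MMP15 without ΔNLS replicate 1 or 3 or WT replicate 2 (up to 0.0951). With erlotinib 3 of 7 were called, beside 44% of all genes, and between the lines 3 of 6, beside 41.4%. The median log2 fold changes of this list were 0.06, -0.31 and 0.22 in the 3 comparisons, beside medians of 0.00, 0.01 and 0.01 over all genes. Apart from MMP15, at 46.5 CPM or more in every library, the called genes stood below 4 CPM. No member of the list other than MMP28 was called in both experiments.

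Of 18 other ADAMs, 6 were tested in each experiment. ADAM9, a widely expressed ADAM protease, was called in all 3 comparisons. It stood at 219, 235 and 216 CPM with EGF, rose to 331, 320 and 319 CPM with cSNX1.3 and fell to 116, 136 and 122 CPM with erlotinib. The log2 fold changes were 0.55 (adjusted p = 0.000786) and -0.82 (adjusted p = 1.79e-06). In ΔNLS, with 129, 129 and 135 CPM, it was below WT, with 245, 249 and 258 CPM, by a log2 fold change of -0.92 (adjusted p = 1.13e-08). ADAM22, which lacks protease activity, rose with erlotinib (1.17) and in ΔNLS (0.97), ADAM21 fell in both (-0.90 and -0.93), and ADAM11 rose in ΔNLS (1.11). The ADAM21 call with erlotinib was lost under scaling by library totals (adjusted p = 0.0687) and without any single EGF or ERL library (up to 0.100). Of the 6, 1 was called with cSNX1.3, 3 with erlotinib and 4 in ΔNLS, beside 6.07%, 44% and 41.4% of all genes. The list's medians were 0.08, -0.16 and -0.12.

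Among 6 inhibitors, TIMP1, a secreted inhibitor of most MMPs and of ADAM10, had 55.7, 73.1 and 58.9 CPM with EGF and 35.5, 30.5 and 29.97 CPM with erlotinib. It fell there by a log2 fold change of -0.94 (adjusted p = 8.52e-06). In WT it had 145, 168 and 141 CPM and in ΔNLS 77.2, 58.7 and 67.6 CPM, lower by -1.15 (adjusted p = 8.48e-08). Together with TIMP1, the inhibitors TIMP2 (-0.63), RECK (-0.44), a membrane-anchored inhibitor, and A2M (-0.26), a protease trap, fell in ΔNLS. Of the 5 tested inhibitors 4 were lower, beside 21% of all genes, and the list median was -0.44. With erlotinib TIMP3, the main natural inhibitor of ADAM17, rose (0.84), as did A2M (0.33), so 3 of 5 were called, beside 44% of all genes, and the median was 0.19. With cSNX1.3 none of the 5 was called by edgeR (1 at an unadjusted p under 0.05, 0 by DESeq2), and the median was 0.09.

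Of 9 partners of ADAM10 and ADAM17, all tested, RHBDF2 (iRhom2), which carries ADAM17 to the surface, changed in every comparison. It rose with cSNX1.3 from 41.3, 41.6 and 43.6 CPM to 58.0, 63.3 and 62.8 CPM (log2 fold change 0.55, adjusted p = 0.000679). With erlotinib it fell to 24.0, 22.2 and 22.5 CPM (-0.86, adjusted p = 1.22e-06). In ΔNLS, at 33.2, 28.9 and 29.1 CPM, it was above WT, at 21.5, 19.5 and 22.7 CPM (0.53, adjusted p = 0.000160). TSPAN5, a tetraspanin that escorts ADAM10, rose with cSNX1.3 (0.44) and fell with erlotinib (-0.32) and in ΔNLS (-0.74). Further tetraspanins of ADAM10 were called with erlotinib and in ΔNLS: TSPAN33 rose in both (0.35 and 0.32), while TSPAN10 rose with erlotinib (0.66) and fell in ΔNLS (-0.41). In all, 2 partners rose and none fell with cSNX1.3, 2 rose and 3 fell with erlotinib, and 2 rose and 3 fell in ΔNLS, with medians of 0.05, -0.06 and -0.06. The 5 of 9 called with erlotinib and the 5 of 9 in ΔNLS stand beside 44% and 41.4% of all genes, and the 2 of 9 with cSNX1.3 beside 6.07%. Some calls rest on single libraries: TSPAN5 with cSNX1.3 was lost without EGF replicate 1 or 3 or cSNX replicate 2 (adjusted p up to 0.0826), TSPAN5 with erlotinib without EGF replicate 2 (0.0712) and under scaling by library totals (0.0626), TSPAN33 with erlotinib without EGF or ERL replicate 1 or 3 (up to 0.132), TSPAN33 in ΔNLS without WT replicate 1 (0.0724), and TSPAN10 in ΔNLS without ΔNLS replicate 1 or 3 (up to 0.0676).

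Precursors of ADAM10, ADAM17 and some MMPs are cut by proprotein convertases, of which 3 of 4 were tested. FURIN rose with cSNX1.3 (log2 fold change 0.34, adjusted p = 0.0401) and fell with erlotinib (-0.27, adjusted p = 0.0263), calls that were lost when libraries were scaled by their totals alone (adjusted p = 0.140 and 0.216). The call with cSNX1.3 was lost too without the count filter (0.0742), with the 2 groups fitted alone (0.0502) and without any EGF library or cSNX replicate 2 or 3 (up to 0.186), and that with erlotinib without EGF replicate 1 or ERL replicate 2 (up to 0.116). PCSK6 rose in ΔNLS (0.41), a call lost without ΔNLS replicate 1 or 2 or WT replicate 2 (up to 0.0754), and the medians were 0.25, -0.27 and -0.11. The plasminogen activators, which turn on MMP precursors through plasmin, changed more, but PLG, the plasminogen gene, had 0 counts in all 15 libraries. PLAT had 5.20, 4.91 and 4.20 CPM with EGF, 14.7, 10.8 and 11.8 CPM with cSNX1.3 and 0.382, 0.449 and 0.597 CPM with erlotinib, a rise of 1.39 (adjusted p = 7.42e-05) and a log2 fold change of -3.30 (adjusted p = 1.75e-08). In ΔNLS it was lower than in WT by -2.11 (adjusted p = 2.14e-09), and PLAU rose with erlotinib (1.87) and fell in ΔNLS (-0.50). ST14 (matriptase) fell with erlotinib (-0.35), and the medians of the 3 tested activators were 0.23, -0.35 and -0.50. Of these 3, 1, 3 and 2 were called in the 3 comparisons, and of the 3 convertases 1, 1 and 1, beside 6.07%, 44% and 41.4% of all genes.

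Proteins that the sheddases cut were examined next. Of the 7 EGF-family ligands, AREG and HBEGF rose with cSNX1.3 by log2 fold changes of 1.54 and 0.92 and fell with erlotinib by -2.14 and -1.92. AREG stood at 4.75, 3.59 and 5.38 CPM with EGF, 13.1, 13.1 and 13.3 CPM with cSNX1.3 and 0.999, 1.02 and 1.05 CPM with erlotinib, with no overlap among groups. BTC and EGF rose with erlotinib (0.96 and 0.48), and the EGF call was lost without the count filter (adjusted p = 0.0522), by DESeq2 (0.0502) and without any EGF library or ERL replicate 2 (up to 0.202). In ΔNLS HBEGF rose (1.07), whereas EPGN (-1.33), BTC (-0.92) and AREG (-0.75) were among 5 ligands that fell. The medians of the 7 were 0.75, -1.25 and -0.75, with 2 higher and 0 lower for cSNX1.3, 2 and 2 for erlotinib, and 1 and 5 for ΔNLS. Over all genes the shares higher and lower were 3.38% and 2.69%, 22.8% and 21.2%, and 20.4% and 21%.

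Of 9 ligands of NK cell receptors that can be shed, RAET1E and RAET1L rose with cSNX1.3 (log2 fold changes 1.66 and 1.01) and none fell. At an unadjusted p under 0.05 there were 4 of the 9, and DESeq2 called 3. MICA, not called by edgeR with cSNX1.3, had 69.9, 74.6 and 70.9 CPM with EGF and 90.0, 89.5 and 81.3 CPM with cSNX1.3, without overlap. The paper reports an effect of cSNX1.3 on MICA. With erlotinib 6 fell and 1 rose, the largest falls being those of RAET1L (-2.48), NCR3LG1 (-1.41), the B7-H6 ligand of NKp30, MICB (-1.33) and ULBP2 (-1.03). In ΔNLS 5 of 8 tested rose, among them ULBP1 (0.999), MICB (0.71), ULBP3 (0.59) and MICA (0.49), and none fell. Beside the 2 of 9 with cSNX1.3 stand 3.38% of all genes higher, beside the 6 of 9 with erlotinib 21.2% lower and beside the 5 of 8 in ΔNLS 20.4% higher. The medians were 0.29, -0.87 and 0.46. ULBP2, RAET1G and RAET1L are close copies. How reads that match several of them were counted is not given in the sources used here, so their single values are uncertain. RAET1L was at 3.16 CPM at most, and its call with cSNX1.3 was lost under scaling by library totals (adjusted p = 0.0760), with all 15 libraries in a single fit (0.0576), with the 2 groups fitted alone (0.0590) and without EGF replicate 1 or 2 or any cSNX library (up to 0.187). The ULBP3 call in ΔNLS was lost without ΔNLS replicate 2 or 3 (up to 0.0594).

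In a list of 11 other shed proteins, of which 10 were tested, IL6R, whose shed form carries interleukin 6 signals to other cells, rose with cSNX1.3 (log2 fold change 1.27), fell with erlotinib (-0.94) and rose in ΔNLS (1.02). CD44, a hyaluronan receptor, rose with cSNX1.3 (0.73). With erlotinib TNF (-2.05), CX3CL1 (-1.03) and L1CAM (-0.88) were among 5 that fell, while 3 rose. In ΔNLS L1CAM (0.98) and NOTCH1 (0.64) rose with IL6R, and ALCAM (-0.64) was among 5 that fell. The IL6R call in ΔNLS was lost without ΔNLS replicate 3 or WT replicate 2 (adjusted p up to 0.0635). Of the 10, 2, 8 and 8 were called in the 3 comparisons, beside 6.07%, 44% and 41.4% of all genes, and the medians were 0.00, -0.39 and -0.20.

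Of 13 AP-1 and ETS factors, which drive many MMP promoters, FOSL1 (FRA1) rose with cSNX1.3, from 15.8, 15.8 and 17.1 CPM to 33.0, 35.4 and 37.1 CPM, and was at 0.735, 0.734 and 0.772 CPM with erlotinib. The log2 fold changes were 1.13 (adjusted p = 5.02e-06) and -4.41 (adjusted p = 6.04e-12), and FOSL1 rose in ΔNLS by 0.88. FOS was lower in all 3 comparisons, by -1.20, -3.18 and -0.60. ETS1 rose with cSNX1.3 (0.69), ETV5 and ETV1 fell with erlotinib (-3.96 and -3.15), and ETV5 and ATF3 rose in ΔNLS (0.64 and 0.73). In this list 2 rose and 1 fell with cSNX1.3, 3 rose and 9 fell with erlotinib, and 7 rose and 4 fell in ΔNLS, with medians of 0.20, -0.89 and 0.20. The shares of all genes higher and lower were 3.38% and 2.69%, 22.8% and 21.2%, and 20.4% and 21%. MMP7 shared the sign of FOS in both drug comparisons but not in ΔNLS. It shared the sign of FOSL1 with erlotinib and in ΔNLS but not with cSNX1.3. These are 2 of the 13 factors, and whether any of them acts on MMP7 was not tested.

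**Figure D4:**
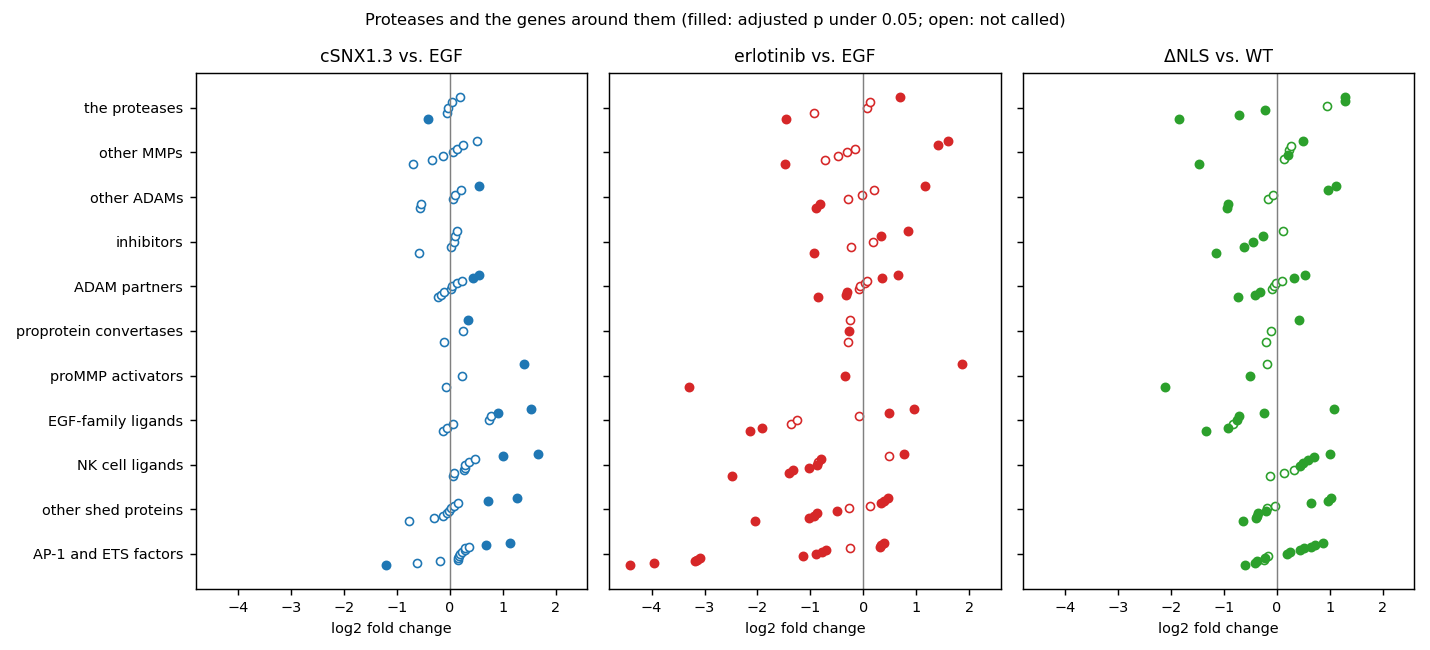
Log2 fold change (x axes) of every tested gene of each list (rows), in the 3 comparisons; filled points have an adjusted p under 0.05 and open points do not. For erlotinib the AP-1 and ETS factors reached -4.41 and the activator PLAT -3.30, whereas the 5 tested proteases lay between -1.46 and 0.69.

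By the likeness of their pattern over the 15 libraries, centred within each experiment, the genes closest to MMP7 were ACSS2 (Pearson r = 0.97), an acetyl-CoA synthetase, BUB3 (0.96), a spindle checkpoint protein, and OLFM2 (0.96). Closest to MMP14 were FBLN5 (0.96), a matrix protein of elastic fibres, SH3BP5L (0.96) and CDC25B (0.95), a cell cycle phosphatase. MMP13 was closest to TM9SF3 (0.92), MPZL3 (0.89) and HLA-DPB1 (0.88). These are the highest of 16524 genes, they share libraries and scaling factors with the proteases, and in MMP13 they rest on few counts.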

How the data were processed

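Expression was measured by RNA-seq in 15 MDA-MB-468 libraries, 3 in each of 5 groups that were read from the sample labels. The authors trimmed reads with TrimGalore 0.6.7, aligned them to GRCh38 with STAR 2.7.9a and counted read pairs per gene with featureCounts, paired-end and without strand. The deposited table thus holds unnormalized counts. The annotation release is not given in the sources used here. 61399 of the 61552 gene IDs matched GENCODE 44, which gave names, coordinates and lengths, and 153 did not. The members and gene lists were chosen with earlier results of these data known.

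The test was that of edgeR 4.0.16 (R 4.3.3): TMM scaling, filterByExpr by group with a minimum count of 10, and a robust quasi-likelihood test with Benjamini-Hochberg adjustment over all genes tested and a threshold of 0.05. The 9 drug libraries, the 6 line libraries and, for the difference of effects, all 15 were fitted. CPM are on the TMM scale, with the SD over 3 libraries; standard errors and 95% intervals come from the fits. Scripts were tested on simulated data. Replicates of a group were compared by a chi-square of their counts (2.69 to 24.5 per degree of freedom), none were duplicates, and the labels name no batch. Likeness used log2 CPM (prior count 2). Up to 4 called genes with the largest change were named for each list and comparison. DESeq2 1.42.0, other scalings, filters and thresholds, a replicate block, other sets of libraries and leaving out each library were alternatives. Intervals on depth cover counting error only.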

Additional observations from a re-analysis of the deposited data

Results flagged for a closer look

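For MMP7, MMP14 and ADAM10, and on few reads for MMP9, the effect of ΔNLS against WT differed from the effect of cSNX1.3 against EGF by a test of the difference itself (edgeR, all 15 libraries, Benjamini-Hochberg adjusted p). MMP7 differed by 1.706 on the log2 scale (adjusted p = 1.755e-08), rising in 3 of 3 ΔNLS libraries above all WT libraries and lying below all EGF libraries in 3 of 3 cSNX1.3 libraries. MMP14 differed by 1.254 (adjusted p = 2.394e-06) and ADAM10 by -0.6705 (adjusted p = 0.0002605), in both cases with line groups that did not overlap and drug groups that did. MMP9 differed by -2.872 (adjusted p = 0.02049), on 0 to 18 read pairs per library. It was kept by the filter only through the groups where it is high, and its call was lost without any 1 of EGF replicate 3, cSNX replicate 1, WT replicate 1 or ΔNLS replicate 2 (adjusted p up to 0.0892) and at an adjusted p under 0.01. The difference between the manipulations and that between the experiments cannot be told apart.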

How the results depend on the processing

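Alternatives concern 5 counts of called genes, the proteases and the named list genes. The count for cSNX1.3 vs. EGF, 956 genes, became 1444 with all 15 libraries in a single fit and 470 at an adjusted p under 0.01, and ranged from 526 to 892 with 1 library left out (526 without cSNX replicate 2, 531 without EGF replicate 1, 592 without EGF replicate 3). The count for the difference of effects, 3819, became 2359 at an adjusted p under 0.01 and ranged from 3106 to 4167 with 1 library left out. With 1 library left out, erlotinib vs. EGF ranged from 5661 to 6773, cSNX1.3 vs. erlotinib from 7718 to 8770 and ΔNLS vs. WT from 5191 to 6559. Scaling by library totals alone, chosen after seeing the data, moved the share of called genes that were higher from 55.6% to 39.8% for cSNX1.3, from 51.8% to 65.5% for erlotinib, from 49.1% to 33.3% for cSNX1.3 vs. erlotinib, from 49.3% to 61.0% for ΔNLS and from 49.0% to 66.4% for the difference of effects, whose median over all genes moved to 0.15. Under it MMP14 in cSNX1.3 vs. EGF turned to -0.019 (adjusted p = 0.960). With 1 library left out, MMP14 in that comparison ranged from -0.00324 to 0.068 and ADAM8 from -0.88 to 0.67 (-0.14 without EGF replicate 2). The MMP7 call in cSNX1.3 vs. EGF, the ADAM17 call in ΔNLS vs. WT and the MMP9 call in the difference of effects were also lost at an adjusted p under 0.01. ADAM8 in cSNX1.3 vs. erlotinib was called without a filter on low counts (adjusted p = 0.0114) and without cSNX replicate 1 (adjusted p = 0.0276), and the MMP13 difference of effects was called by DESeq2 (adjusted p = 0.0389) and without EGF replicate 3 or cSNX replicate 2 (0.0426 and 0.0234). The causes were not tested. Of 915 values for single genes under settings that keep all libraries, 873 kept their direction and side of the threshold. Of the rest, 36 lost a call, 5 gained one and 1 turned. With 1 library left out it was 627, 61, 3 and 3 of 694. The counts of called genes are not among these values.

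Replicate numbers did not pair the libraries. The correlations of same-numbered deviations were -0.23, -0.15 and 0.28 for cSNX1.3 and EGF. They were -0.10, -0.02 and 0.11 for erlotinib and EGF, and -0.09, -0.11 and -0.02 for the lines. The strongest correlation was between different numbers, at 0.43 for cSNX replicate 1 and EGF replicate 2. What these libraries share is not labelled and was not tested. With a replicate block the counts were 841, 6707, 8643, 5766 and 3316 in the order cSNX1.3 vs. EGF, erlotinib vs. EGF, cSNX1.3 vs. erlotinib, ΔNLS vs. WT and the difference of effects. No protease changed its call with the block, while FURIN with cSNX1.3 (0.34, adjusted p = 0.0724) and EGF with erlotinib (0.48, adjusted p = 0.0596) lost theirs.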
